A study of Rattus norvegicus with 8 samples.

Results

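Vessels of the brain are built from endothelial cells, which line the lumen and are sealed by tight junctions, and from pericytes and smooth muscle cells (mural cells), which wrap them. Both cell types share a basement membrane of type IV collagen and laminins, and the growth factor VEGF-A acts on receptors of the endothelium. The transcripts described here are 7 genes of this unit: Rgs5 and Anpep of pericytes, Cldn5, Emcn and Ets1 of endothelium, Col4a1 of the basement membrane and Vegfa, the ligand. They were selected on measured values: every probe with these gene names was taken from the sheets in which the authors listed what differed between the groups. That gave 8 probes of the 450 listed, which carry 440 distinct names, and of the 15207 on the array. Ets1 has 2 probes and every other gene has 1.

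One-colour arrays were run on whole medial prefrontal cortex (mPFC) from rats 6 months old. The PNFLX group (4 arrays) was given fluoxetine, an antidepressant that blocks serotonin reuptake, at 10 mg/kg from postnatal day 2 to 21, and the CONTROL group (4 arrays) had received a vehicle of 5% sucrose over the same days. Strain, sex and litter are not given here, nor is it said that each array is a separate animal, so the spread is that between these arrays and may be technical. The free-text descriptions of CONTROL 2, 3 and 4 name fluoxetine while their titles and source names say control, and the titles were followed.

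The values are log2 differences from the control median of the same probe and give no level. The number of arrays limits the precision. Over all probes CONTROL 1 and PNFLX 2 differed from the rest, with array medians of 0.79 and 0.59 (log2) against -0.18 to 0.09 for the others. In bulk tissue, fewer cells of a type and less RNA per cell cannot be told apart. Neuronal, astrocyte, microglial, fibroblast, erythrocyte and choroid plexus markers are not among the named probes, so the labelled tissue was not checked against them here.

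The authors listed these probes because the mean PNFLX value lay at least 0.4 (log2) from the control median with an unadjusted p of at most 0.05, so the contrast between the groups is what chose them. Their differences are given as a description, without a test. Of the 15207 probes 2.96% met those criteria. Vegfa lay nearest to the limits, with a mean of -0.47 and p = 0.0467 in the authors' deposited table, and the probes just outside the limits are unnamed here. With limma adjusted over all probes, 0 of the 8 probes passed 0.05, against 0.118% of all probes, and 4 of the 8 had an unadjusted limma p under 0.05, against 2.58%.

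The 7 genes did not share a direction. Emcn, Ets1 and Col4a1 were listed as higher in PNFLX and Rgs5, Anpep, Cldn5 and Vegfa as lower. The endothelial genes were listed on both sides, and both pericyte genes were on the lower side. All 4 PNFLX arrays had the same 4 probes above and the same 4 below the control median, which the choice of the probes favours. The median difference of the 8 probes was 0.11 (log2), beside -0.07 over all probes. For 1 of the 8 probes, that of Rgs5, the groups did not overlap, against 2.32% of all probes. Without CONTROL 1 and PNFLX 2 the groups did not overlap for 5 of the 8, against 12.3% of all probes.

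Promoter sequences are shown for Emcn and Cldn5, endothelial genes listed in opposite directions, and for Rgs5, whose difference was the largest of the 7 genes. They are the 250 bases before the annotated start in the RefSeq annotation of the rat assembly GRCr8, 5′ to 3′ on the strand of the gene. Capitals mark the core GGAA, or TTCC on the other strand, that ETS transcription factors such as Ets1 recognise. The Emcn window is chr2:228564289-228564538 (plus strand), part of which lies inside the annotated gene (chr2:228564445-228644370). The Cldn5 window is chr11:95718599-95718848 (minus strand) and that of Rgs5 is chr13:84380827-84381076 (plus strand).
Emcn: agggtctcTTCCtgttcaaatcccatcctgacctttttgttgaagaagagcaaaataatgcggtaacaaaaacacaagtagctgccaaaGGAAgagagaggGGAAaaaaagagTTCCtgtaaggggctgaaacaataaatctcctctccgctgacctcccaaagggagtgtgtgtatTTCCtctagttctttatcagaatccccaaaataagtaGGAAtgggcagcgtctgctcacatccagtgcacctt
Cldn5: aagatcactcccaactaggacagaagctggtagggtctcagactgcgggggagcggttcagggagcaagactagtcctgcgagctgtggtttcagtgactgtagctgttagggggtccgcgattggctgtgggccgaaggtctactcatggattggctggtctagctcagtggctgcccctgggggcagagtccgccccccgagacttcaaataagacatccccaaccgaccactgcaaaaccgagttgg
Rgs5: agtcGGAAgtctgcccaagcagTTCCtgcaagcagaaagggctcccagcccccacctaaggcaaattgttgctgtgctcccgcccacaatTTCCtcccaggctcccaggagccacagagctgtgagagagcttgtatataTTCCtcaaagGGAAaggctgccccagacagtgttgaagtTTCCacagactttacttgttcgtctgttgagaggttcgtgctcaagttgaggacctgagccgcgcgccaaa

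The ETS core occurred 6 times in the window of Emcn, 6 times in that of Rgs5 and 0 times in that of Cldn5. Of 33469 windows of this length, 93.2% hold the core at least once, with a median of 3 matches. The longer form GGAAGT, which overlaps the core and was searched on both strands, was found once, in Rgs5, and stands in 19.2% of all windows. RefSeq windows were matched for 6 of the 7 genes, and the core occurred 4 times in the first window of Vegfa, 3 times in that of Col4a1 and 2 times in that of Anpep. The Anpep window, chr1:143195102-143195351 (minus strand), lies inside the annotated gene (chr1:143176645-143219447). On both strands together, the first window of Vegfa held the GC box GGGCGG 3 times and those of Rgs5, Cldn5 and Col4a1 held it 1 time each, and 30.5% of all windows hold it. The hypoxia response core ACGTG, also searched on both strands, was in none of these windows and is in 16.6% of all windows. A match is a run of letters and not a binding site, and these counts say nothing about what any factor does.

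Emcn encodes endomucin, a sialomucin of the surface of venous and capillary endothelium (chr2:228564445-228644370, GRCr8). Its log2 values were 2.25, -1.08, -0.22 and 0.22 in CONTROL 1 to 4 and 2.21, 2.66, 2.41 and 2.21 in PNFLX 1 to 4. The PNFLX arrays lay close together, while CONTROL 1 stood at the level of the PNFLX group and above 2 of its arrays. Measured from each array's own median, the values were 1.46, -0.96, -0.16 and 0.16 in CONTROL and 2.13, 2.07, 2.56 and 2.39 in PNFLX, and on that scale CONTROL 1 lay below every PNFLX array. The background-subtracted signals were 51.6, 4.08, 7.40 and 7.41 in CONTROL and 36.0, 81.5, 51.2 and 43.4 in PNFLX. The signals were 3.47, 1.71, 2.65 and 2.91 times the lowest listed signal of the same array in CONTROL 1 to 4 and 8.96 to 44.9 times in PNFLX, and detection flags were not used here. PNFLX minus CONTROL was 2.08 ± 0.67 (log2, limma SE, n = 4 per group), 2.73 without CONTROL 1, and 0.99 when an offset of 16 was added to every signal before the logarithm.

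Ets1, a transcription factor of endothelial and lymphoid cells, lies on chr8:39303936-39426022 (GRCr8). Its probe RN_GT_102119 read -0.06, 0.85, -0.11 and 0.06 in CONTROL 1 to 4 and 1.29, 0.57, 1.10 and 1.07 in PNFLX 1 to 4. Probe RN_GT_102118 read -0.16, 0.71, -0.02 and 0.02 in CONTROL and 1.33, 0.45, 0.72 and 0.77 in PNFLX. On both probes CONTROL 2 was the highest control and lay above PNFLX 2, the lowest treated array, and the other 3 PNFLX arrays lay above every control. The differences were 0.82 ± 0.32 and 0.68 ± 0.32 (log2, limma SE, n = 4 per group), or 1.77-fold and 1.60-fold. The probes differed from each other on the same array by -0.09 to 0.14 in CONTROL and by -0.03 to 0.38 in PNFLX, less than the difference between the groups. Measured from the array's own median, PNFLX 2 stood at -0.03 and -0.14 on these probes, and PNFLX 1, 3 and 4 at 0.87 to 1.25. On that scale CONTROL 2 was at 0.96 and 0.82 and CONTROL 1 at -0.85 and -0.95. The groups overlapped more than before: CONTROL 4 also lay above PNFLX 2 on both probes, and CONTROL 3 did on RN_GT_102118. The signals, 230 to 570 in CONTROL and 570 to 760 in PNFLX, were far from the lowest on the arrays.

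Cldn5 encodes claudin-5, the main tight junction protein of the blood-brain barrier (chr11:95717172-95718598, GRCr8). Its values were -0.36, -0.04, 0.22 and 0.04 in CONTROL 1 to 4 and -0.40, -1.10, -0.67 and -0.26 in PNFLX 1 to 4. PNFLX 4 lay inside the control range, and PNFLX 1 lay just below CONTROL 1. Measured from the array's own median, CONTROL 1 stood at -1.15, below PNFLX 1, 3 and 4 (-0.48, -0.52 and -0.08). Signals ran from 1897 to 2920 in CONTROL and from 1713 to 2280 in PNFLX, so the probe was bright on every array. PNFLX minus CONTROL was -0.57 ± 0.29 (log2, limma SE, n = 4 per group), and -0.92 after quantile normalization.

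**Figure D1:**
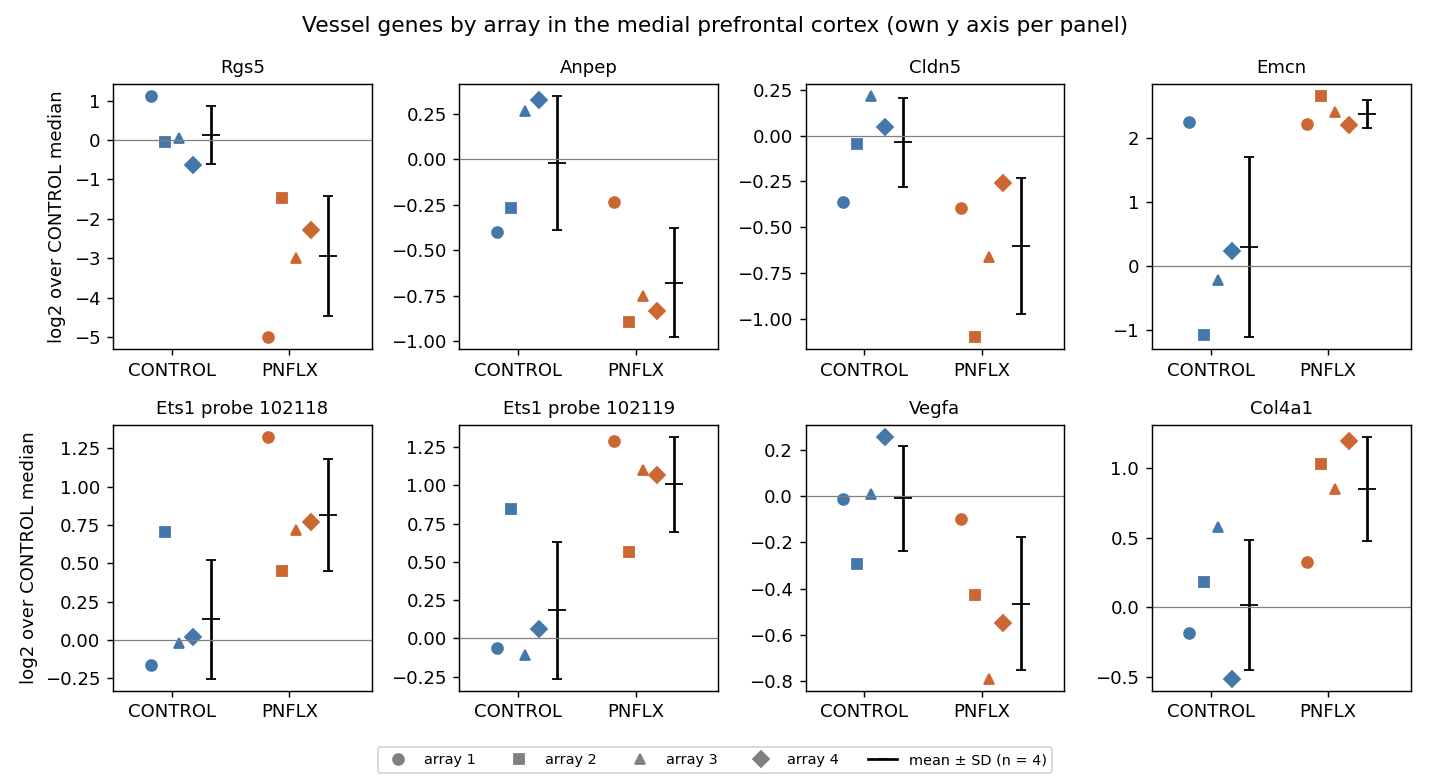
Each panel plots the log2 value of a vessel probe over the CONTROL median, by array (array numbers 1 to 4 as symbols), with the group mean ± SD (n = 4) beside the points and a y axis of its own. The groups are apart for Rgs5 alone, CONTROL 1 lies among the PNFLX arrays for Emcn (2.25, or 1.46 from its own array median, where it falls below them), and CONTROL 2 lies above PNFLX 2 on both Ets1 probes.

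Rgs5, a regulator of G-protein signalling enriched in pericytes, lies on chr13:84381077-84417875 (GRCr8). The log2 values were 1.12, -0.06, 0.06 and -0.63 in CONTROL 1 to 4 and -5.00, -1.48, -3.00 and -2.28 in PNFLX 1 to 4. Every PNFLX array was below every CONTROL array, and the gap between the groups was narrow beside the spread within PNFLX. Signals were 498, 174, 190 and 86.2 in CONTROL and 5.10, 97.4, 25.4 and 40.7 in PNFLX. On PNFLX 1 the signal was 1.72 times the lowest listed signal of that array, a value that 57 listed probes shared. PNFLX minus CONTROL was -3.06 ± 0.77 (log2, limma SE, n = 4 per group), an 8.35-fold lower geometric mean, and -2.38 without PNFLX 1. With an offset of 16 added to every signal before the logarithm, the difference was -2.33, so its size depends on background. The SD was 0.73 in CONTROL and 1.51 in PNFLX (n = 4 each).

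Anpep encodes aminopeptidase N (CD13), a peptidase on the surface of brain pericytes (chr1:143176645-143219447, GRCr8). Values of -0.40, -0.27, 0.27 and 0.33 in CONTROL 1 to 4 compared with -0.24, -0.89, -0.75 and -0.84 in PNFLX 1 to 4. PNFLX 1 lay inside the control range and the other 3 lay below it. From each array's own median, CONTROL 1 was at -1.19, below PNFLX 1, 3 and 4 (-0.32, -0.60 and -0.65). Signals were 172 to 249 in CONTROL and 126 to 166 in PNFLX. PNFLX minus CONTROL was -0.66 ± 0.30 (log2, limma SE, n = 4 per group), and -1.11 after quantile normalization. PNFLX 1, the lowest array for Rgs5, was thus the highest PNFLX array for Anpep.

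Col4a1 encodes the alpha-1 chain of type IV collagen, the network-forming collagen of basement membranes (chr16:84885597-84996482, GRCr8). Its log2 values were -0.18, 0.18, 0.57 and -0.51 in CONTROL 1 to 4 and 0.33, 1.02, 0.85 and 1.19 in PNFLX 1 to 4. CONTROL 3 lay above PNFLX 1, and the other PNFLX arrays were above every control. Measured from the array's own median, CONTROL 3 (0.64) lay above both PNFLX 1 (0.24) and PNFLX 2 (0.43). PNFLX minus CONTROL was 0.83 ± 0.34 (log2, limma SE, n = 4 per group), with signals of 150 to 433 in CONTROL and 327 to 881 in PNFLX.

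Vegfa encodes the growth factor that acts on endothelial receptors to drive growth and permeability (chr9:22452854-22468194, GRCr8). The values were -0.01, -0.29, 0.01 and 0.26 in CONTROL 1 to 4 and -0.10, -0.43, -0.79 and -0.55 in PNFLX 1 to 4. PNFLX 1 lay inside the control range. From each array's own median, CONTROL 1 was at -0.80, below PNFLX 1, 3 and 4 (-0.18, -0.64 and -0.37). With signals of 59.8 to 91.9 in CONTROL and 47.5 to 81.5 in PNFLX, the difference of -0.46 ± 0.27 (log2, limma SE, n = 4 per group) was the smallest in size of the 7 genes.

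The lists of vessel genes chosen for this tissue added 4 genes from the same deposited tables, of which 0 passed in limma over all probes (0.118% of all probes did) and 2 had an unadjusted limma p under 0.05 (2.58%). On the deposited values the groups were apart for 2 of them, Notch3 and Kcnj8, against 2.32% of all probes. The groups of both genes overlapped when measured from each array's own median. The pericyte and mural list of 23 genes had 5 named, with Rgs5, Anpep, Kcnj8 and Notch3 as lower and Cox4i2 as higher. The endothelial list of 34 genes had Emcn and Ets1 as higher and Cldn5 as lower. Of 25 basement membrane genes Col4a1 and Lamc1 were named, both as higher, and of 49 genes of VEGF, angiopoietin and hypoxia signalling Vegfa alone was named. The median difference was -0.66 (log2) over the 5 probes of the pericyte list, 0.75 over the 4 endothelial probes and 1.41 over the 2 basement membrane probes, beside -0.07 over all probes. The authors chose the named genes on these arrays, with 225 probes on each side, so the counts are no independent evidence of direction. Only listed probes carry names, so how many genes of each list have a probe on the array is not known here, and 2.96% of all probes were listed. The receptors of VEGF-A have no named probe and were not analysed here.

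Notch3, the Notch receptor of mural cells, read -0.71, -0.79, 0.71 and 1.07 in CONTROL 1 to 4 and -2.41, -1.66, -1.56 and -2.61 in PNFLX 1 to 4. Its groups were apart, at a difference of -2.13 ± 0.53 (log2, limma SE, n = 4 per group), with signals of 424 to 1202 in CONTROL and 124 to 347 in PNFLX. Measured from each array's own median, Notch3 was at -1.50 on CONTROL 1, below PNFLX 3 (-1.41), and its groups overlapped. Kcnj8 encodes the pore of the ATP-sensitive potassium channel of pericytes. Its values of 0.14, -0.09, -0.00045 and 0.00045 in CONTROL and -0.32, -0.50, -0.41 and -0.45 in PNFLX were also apart, at a difference of -0.43 ± 0.22. Measured from the array's own median, Kcnj8 was at -0.65 on CONTROL 1, below PNFLX 1, 3 and 4 (-0.40, -0.26 and -0.27). The SD of Kcnj8 was 0.09 in CONTROL and 0.08 in PNFLX (n = 4 each), smaller within groups than in nearly all other probes. Cox4i2, a cytochrome c oxidase subunit isoform also used as a pericyte marker, stood on the other side at 0.51 ± 0.27, and its PNFLX 1 value (0.23) lay inside the control range of -0.11 to 0.49.

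Lamc1, the gamma-1 chain of laminins, read 1.92, -0.87, -0.25 and 0.25 in CONTROL 1 to 4 and 2.07, 3.06, 1.90 and 1.93 in PNFLX 1 to 4. As with Emcn, CONTROL 1 was at the level of the PNFLX arrays, but from its own array median it was at 1.13 and below all of them (1.99 to 2.46). The probe was dim, with signals of 28.1, 3.23, 4.99 and 5.15 in CONTROL and 22.4 to 73.5 in PNFLX. PNFLX minus CONTROL was 1.98 ± 0.62 (log2, limma SE, n = 4 per group). Vcam1, an adhesion molecule of activated endothelium, is outside the lists and was named after its values were seen. It was at -2.76 ± 0.85 (log2, limma SE), with PNFLX 3 (-0.04) inside the control range and the other PNFLX arrays at -3.83 to -3.38. Lists of other cell types had no named gene, except Vcan in the oligodendrocyte list, listed as lower (-3.24 ± 0.54, with PNFLX 1 at the lowest listed signal of that array, 2.97, and PNFLX 4 at 3.06, so that its size depends on background), so the level of other cell types was not followed here.

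**Figure D2:**
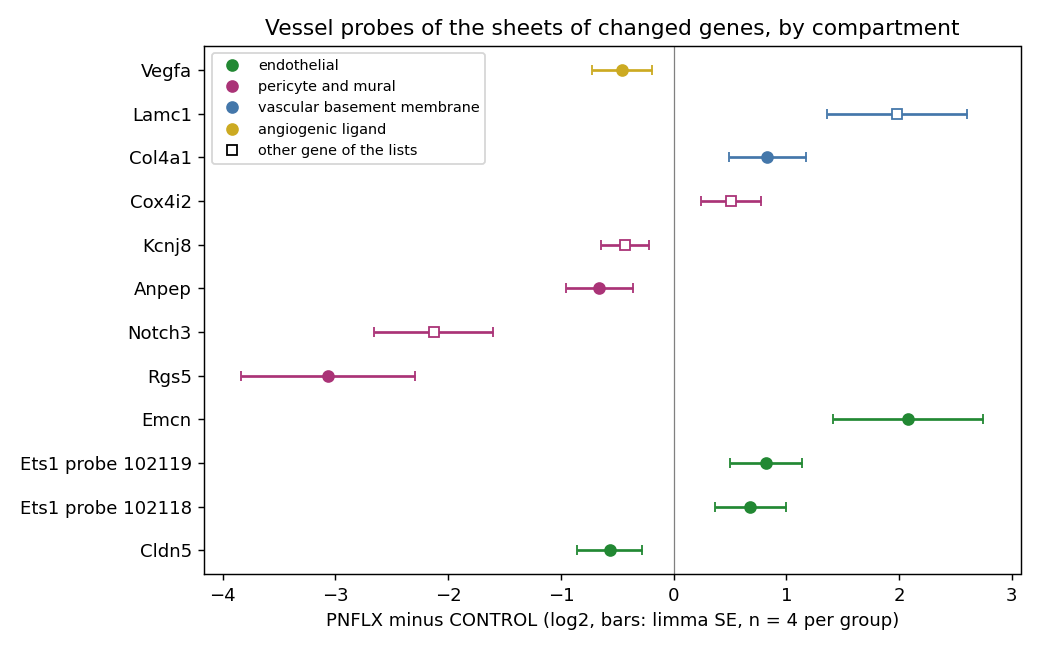
The difference PNFLX minus CONTROL on the log2 scale is plotted with the limma SE (n = 4 per group), coloured by compartment. Filled circles are the probes of the 7 genes and open squares the other named genes of the vessel lists. Vcam1 (-2.76), an endothelial adhesion molecule outside the lists, is not plotted. The plotted pericyte genes lie from -3.06 to 0.51, the plotted endothelial genes from -0.57 to 2.08, and both basement membrane genes lie above 0.

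Differences between genes on the same array do not contain the scaling constant of the array, and the pairs were chosen with the values known. A pair of a gene listed as higher and a gene listed as lower adds up both selected differences. The mean difference of such a pair between the groups follows from the listing. The listing also favours a lack of overlap, so neither is further evidence. Anpep minus Cldn5, a pericyte against an endothelial gene, was -0.22 to 0.28 (log2) over the CONTROL arrays and -0.58 to 0.21 over the PNFLX arrays. For these genes of different cell types the mean of the pair was 0.02 ± 0.21 in CONTROL and -0.07 ± 0.36 in PNFLX (SD, n = 4 each). Both were listed as lower, at -0.66 and -0.57, so the small change of the pair follows from those values and is no further evidence. Among pericyte genes, Rgs5 minus Anpep was 1.52, 0.21, -0.21 and -0.96 in CONTROL 1 to 4 and -4.76, -0.59, -2.25 and -1.44 in PNFLX 1 to 4. PNFLX 2 lay inside the control range for that pair. The mean difference between groups was -2.40 and became -1.57 without PNFLX 1.

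Among endothelial genes, Emcn minus Cldn5 was 2.61, -1.04, -0.44 and 0.18 in CONTROL 1 to 4 and 2.61, 3.76, 3.07 and 2.47 in PNFLX 1 to 4. CONTROL 1 again lay within the PNFLX range. Ets1 (probe RN_GT_102119) minus Cldn5 was 0.30, 0.89, -0.33 and 0.02 in CONTROL and 1.69, 1.67, 1.77 and 1.32 in PNFLX. The groups did not overlap for this pair, which joins a gene listed as higher with a gene listed as lower. Col4a1 minus Cldn5 was 0.18, 0.23, 0.36 and -0.55 in CONTROL and 0.72, 2.13, 1.51 and 1.45 in PNFLX, also without overlap and with the same limit. A difference on the same array compares the genes with each other and does not show that either stayed the same.

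**Figure D3:**
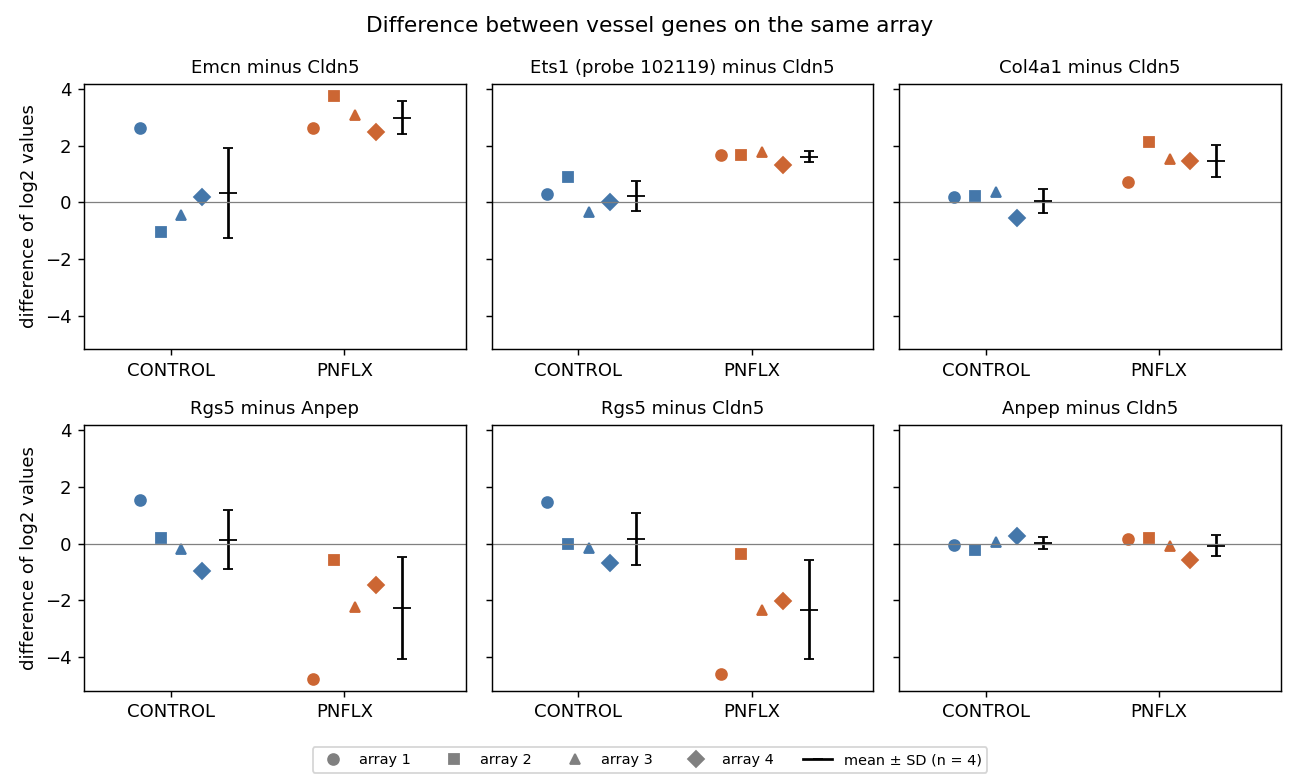
Each panel plots the difference of the log2 values of a pair of vessel genes on the same array, by group, with the mean ± SD (n = 4), on a shared y axis. Anpep minus Cldn5, both listed as lower, runs from -0.58 to 0.28 over the 8 arrays. Ets1 minus Cldn5 and Col4a1 minus Cldn5 each take a gene listed as lower from a gene listed as higher. The listing favours their separation, which is no further evidence. Emcn minus Cldn5 is also such a pair, and its groups overlap.

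Deviations of each array from its group mean, which the group difference does not enter, also differed in sign between the genes. They are a description over 8 arrays that share array-wide deviations, with r after leaving out CONTROL 1 and PNFLX 2 given second. The 2 Ets1 probes had a Pearson r of 0.92 and 0.89. Rgs5 and Anpep had r = -0.81 and -0.76, and Anpep and Vegfa 0.69 and 0.90. For Emcn and Cldn5 r was -0.53 and turned to 0.13, and for Anpep and Emcn it was -0.34 and turned to 0.63. Of the 28 pairs of probes 13 had r above 0 and 15 below 0 over the 8 arrays, and 11 and 17 over the 6 arrays, with 8 pairs of different sign between them.

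The listed genes whose deviations were most like a vessel gene were picked for the highest r, so the values are high by choice. For Rgs5 they were Sult5a1 (r = 0.96) and Arrb2 (0.90), for Emcn Rexo4 (0.96) and Lamc1 (0.95), and for Cldn5 Or2a57 (0.97) and Celf6 (0.94). Cnr1, the cannabinoid receptor, was among the closest for both Ets1 probes (0.96 and 0.94), beside Slc25a22 (0.97) and Cdkn1b (0.95). Anpep was closest to Ttc3 (0.91) and Pxmp4 (0.90), Vegfa to Hsf1 (0.87) and Usp48 (0.86), and Col4a1 to Abl1 (0.82) and Spint2 (0.80). Lamc1 was the single vessel gene of the lists among them. Without CONTROL 1 and PNFLX 2, r fell to 0.66 for Cldn5 with Celf6 and was 0.80 to 0.99 for the other pairs.

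**Figure D4:**
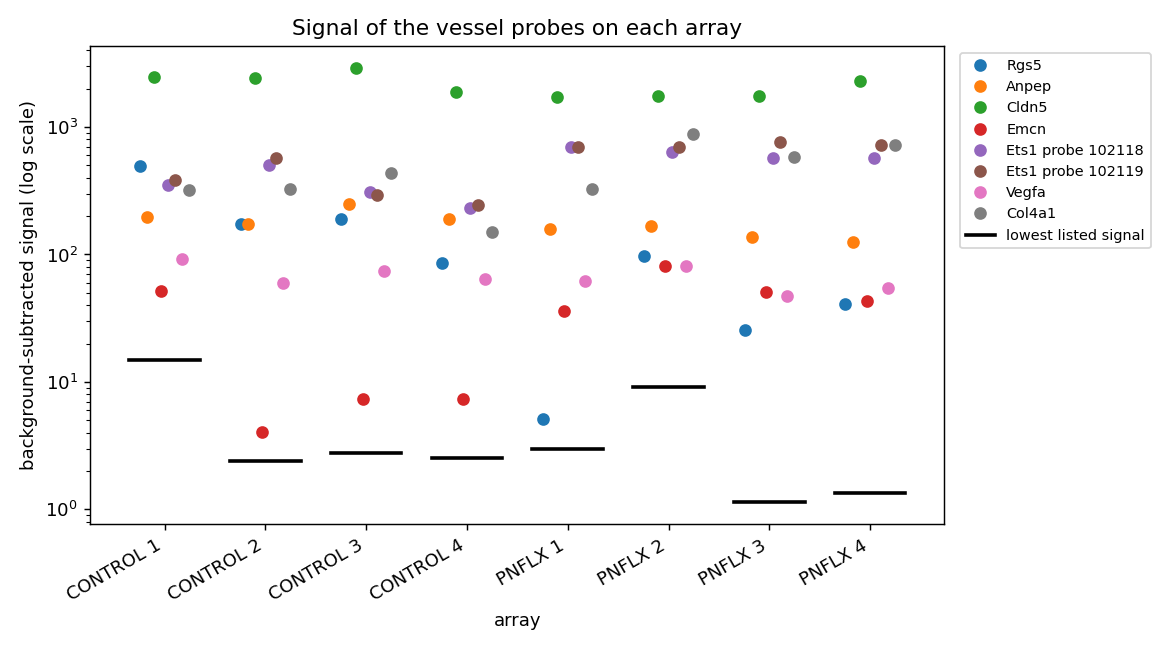
The background-subtracted signal of the 8 vessel probes is plotted on a log axis for each of the 8 arrays, with a black bar at the lowest signal among the listed probes of that array. Emcn lies near the bar on CONTROL 1 to 4 (1.71 to 3.47 times the bar) and Rgs5 on PNFLX 1 (1.72 times). The other points lie at 6.18 times the bar (Vegfa on CONTROL 1) or more.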

How the data were processed

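One-colour Cy3 arrays of a custom rat 8x15k design were processed by the authors. Their deposited values are log2 differences, and the control median was 0 (within 1e-06) in each of 15207 probes. Per the file headers, the authors' tables of changed genes hold these log2 values, background-subtracted signal intensity and an unadjusted p-value. The scaling, the software and any flags for detection are not stated. Symbols came from those tables, and 433 of 450 listed probes matched the RefSeq table for GRCr8 by gene ID or symbol. Array numbers given here are those of the sample titles. The authors' tables number some arrays otherwise, as the source names do, and their columns were matched through the source names.

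Each probe was fitted with limma 3.58.1 (R 4.3.3), PNFLX minus CONTROL, two-sided, with Benjamini-Hochberg adjustment over all probes. The fit was tested on simulated data. Other values were computed with Python 3.11.15. The naming rule took all probes of the 7 genes, the listed genes of the vessel and cell type lists, and the 2 listed genes with the most similar deviations per probe. The genes, lists and pairs were chosen with earlier results of these data known. Alternatives were equal array medians, quantile normalization, a variance filter, no moderation, a replicate block, a signal offset and leaving out arrays. Taking CONTROL 1 and PNFLX 2 as a block was added after seeing the data.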

Additional observations from a re-analysis of the deposited data

Results flagged for a closer look

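Among 28 groups of 4 arrays examined (the vessel probes, the array medians, the other vessel genes named from the lists and Vcam1), 3 held an array whose gap to its neighbour exceeded Dixon's limit, and chance alone gives about 1.4. None of the 3 was a probe of the 7 genes. Cox4i2 on PNFLX 1 was at 0.23 (log2) against 0.72 to 0.74 on the other PNFLX arrays, with a ratio of gap to range of 0.960. Lamc1 on PNFLX 2 was at 3.06 against 1.90 to 2.07, with a ratio of 0.853. Vcam1 on PNFLX 3 was at -0.0371 against -3.83 to -3.38, with a ratio of 0.883.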

How the results depend on the processing

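None of the 8 vessel probes passed limma's adjusted threshold under the alternatives fitted over all probes (7 of the 8 remained after the variance filter). The signal offset could be applied to listed probes only and has no such test. Each probe kept its sign under every setting for which its value was recomputed, which the choice of the probes favours. Both block settings are balanced between the groups, so they cannot change the difference of a probe. Of 112 values of these probes under alternatives, those of the block settings included, 3 moved by more than the SD within groups. They were Anpep (-1.11) and Cldn5 (-0.92) after quantile normalization, and Emcn (0.99) with the signal offset. The count over all probes, 18 as described, was 10 after quantile normalization, 40 without CONTROL 1 and PNFLX 2 and 43 with these arrays as a block. It ranged from 2 to 26 when single arrays were left out, with 2 without CONTROL 2, 3 without CONTROL 3, 4 without CONTROL 4 and 2 without PNFLX 4. The cause was not tested. Array numbers as a replicate block gave 0 calls (346 probes at an unadjusted limma p under 0.05). Deviations of arrays with the same title number correlated at -0.21, -0.67, 0.44 and 0.35 across probes, so the title numbers were not taken to pair the arrays. Pairing by the numbers in the source names was not tested. The within-array differences stayed within their SD in the alternatives run. Leaving out single arrays gave 2.20 to 3.41 for Emcn minus Cldn5, 1.21 to 1.61 for Ets1 minus Cldn5, 1.18 to 1.64 for Col4a1 minus Cldn5, -2.96 to -1.57 for Rgs5 minus Anpep and -3.15 to -1.74 for Rgs5 minus Cldn5. Dim signals limit the size given for Emcn, Lamc1, Vcan and Rgs5, the last of these most on PNFLX 1.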
